A study of Mus musculus with 31 samples.

Results

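Liver mRNA of 9 genes is described here: 4 members of the C/EBP family of transcription factors (Cebpa, Cebpb, Cebpd and Cebpg) and 5 genes known to be induced by glucocorticoids (Fkbp5, Tsc22d3, Sgk1, Dusp1 and Klf9). They were taken by gene symbol from the array's annotation, as 9 of the 22180 genes measured. Each had a single probe set of its own: 17476728 for Cebpa, 17379938 for Cebpb, 17323297 for Cebpd, 17489707 for Cebpg, 17342868 for Fkbp5, 17544939 for Tsc22d3, 17232055 for Sgk1, 17342642 for Dusp1 and 17358214 for Klf9. Cebpa and Cebpg lie on chromosome 7, Fkbp5 and Dusp1 on chromosome 17, and the others on chromosomes 2 (Cebpb), 16 (Cebpd), X (Tsc22d3), 10 (Sgk1) and 19 (Klf9). The series asked whether fasting leaves a lasting trace in the liver of mice. All animals were male C57BL/6 mice of 3 to 4 months, and livers were taken in the morning, 1 array per mouse, 31 arrays in all. Mice labelled Fed_Fed_Fed (n = 8) had 0 earlier fasts and were fed at sampling, and Fed_Fed_Fast (n = 8) had 0 earlier fasts and were sampled after a fast of 16 h. Mice labelled Fast_Fast_Fed (n = 8) and Fast_Fast_Fast (n = 7) had been through 2 fasts of 16 h within 8 weeks, with regrowth after each, and were then sampled fed or after a final fast. The labels name no transgene or drug. The RNA was that of whole liver, so fewer cells of a type and less RNA per cell cannot be told apart.

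Glucocorticoids are adrenal hormones that rise in fasting and act through the glucocorticoid receptor, a ligand-activated transcription factor that binds palindromic response elements in DNA. C/EBP factors are basic leucine zipper proteins that bind DNA as dimers. In hepatocytes they help set the expression of enzymes of gluconeogenesis, the urea cycle and the acute phase, alongside the receptor and the cAMP-activated factor CREB.

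Sequence just upstream of the start sites was used for 8 of the 9 genes, all but Cebpd, in 15 windows of 250 bases (RefSeq, build GRCm38.p6). Sgk1 had 6 such windows and Tsc22d3 had 3. The stretches below hold response elements of the kinds named above, as matches to fixed letters on either strand. Full palindromes are shown wherever they matched in these windows, and the shorter cAMP site for Cebpb and Klf9 alone, picked by hand. The first is from Sgk1 (chr10:21993671-21993745, + strand), with the palindrome of the glucocorticoid receptor in capitals (AGAACA and TGTTCT, parted by any 3 bases), which begins 189 bases upstream of the start of 1 of its transcripts. The second is from Dusp1 (chr17:26508578-26508645, - strand), with the cAMP response element TGACGTCA in capitals. The last ones, from Cebpb (chr2:167688832-167688914, + strand) and Klf9 (chr19:23141150-23141214, + strand), have the shorter cAMP site TGACG in capitals.
Sgk1: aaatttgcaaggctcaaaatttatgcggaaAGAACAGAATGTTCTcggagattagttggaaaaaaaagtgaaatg
Dusp1: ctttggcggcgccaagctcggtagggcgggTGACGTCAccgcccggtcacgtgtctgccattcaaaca
Cebpb: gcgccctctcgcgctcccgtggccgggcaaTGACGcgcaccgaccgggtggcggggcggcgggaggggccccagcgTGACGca
Klf9: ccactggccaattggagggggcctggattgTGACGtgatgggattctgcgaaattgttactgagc

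The palindrome was rare, with a match in 3 of 32851 mouse windows (0.00913%), which belonged to Sgk1, Acnat2 and Gm35041. TGACGTCA was in 1.55% of windows. TGACG was in 17.8%, among them the windows of Cebpb, Dusp1 and Klf9 and windows of Tsc22d3 and Sgk1. Further TGACG matches, not in the stretches above, lay 180 bases upstream in Cebpb and 191 in Dusp1. TGACGTCA holds TGACG on both strands, so the element in Dusp1 counts under both motifs. The C/EBP palindrome TTGCGCAA was in 0.164% of windows and in none of the 15 of these genes, and the shorter TTGCG was in 14.5%, among them the window of Cebpa and windows of Tsc22d3 and Sgk1. TGTTCT alone was in 16.1%, with matches in Sgk1 and Tsc22d3, and the TATA box TATAAA in 12.4%, with matches in Cebpa and Sgk1. The windows of Cebpg and Fkbp5 held none of these letters. A match describes letters and shows no binding.

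Values are RMA signals on a log2 scale, so a difference of 1 is a doubling. Signals ran from -0.0139 to 13.1 over all probe sets, array medians were close to each other (2.007 to 2.072), and the number of arrays limits the precision. Levels of different genes are not compared, since each probe set has its own response. Defining hepatocyte markers were bright, with Alb at 12.99 on average, and the mean of 9 hepatocyte markers stayed between 11.79 and 11.89 on every array. By the calls defined below, the final fast raised 6.25% of all genes and lowered 6.23% with 0 earlier fasts. With 2 it raised 6.06% and lowered 5.52%. A set of 12 Kupffer cell markers moved with the final fast: 8 fell and 0 rose in mice with 0 earlier fasts, and 4 fell and 0 rose with 2. The first count was 4 without Fed_Fed_Fast replicate 8 and 5 without Fed_Fed_Fast replicate 5 or Fed_Fed_Fed replicate 2. The second was 1 without Fast_Fast_Fast replicate 2 or 5 or Fast_Fast_Fed replicate 7, and 2 without Fast_Fast_Fed replicate 1 or 3. Their mean per mouse ran from 5.16 to 6.43 in Fed_Fed_Fed, 4.88 to 6.12 in Fast_Fast_Fed, 4.70 to 5.78 in Fed_Fed_Fast and 4.68 to 5.60 in Fast_Fast_Fast. None of the 12 sat at the bottom of the signals, and the dimmest, Marco, had a mean of 4.10. The part of this shift in the values below was not tested.

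**Figure D1:**
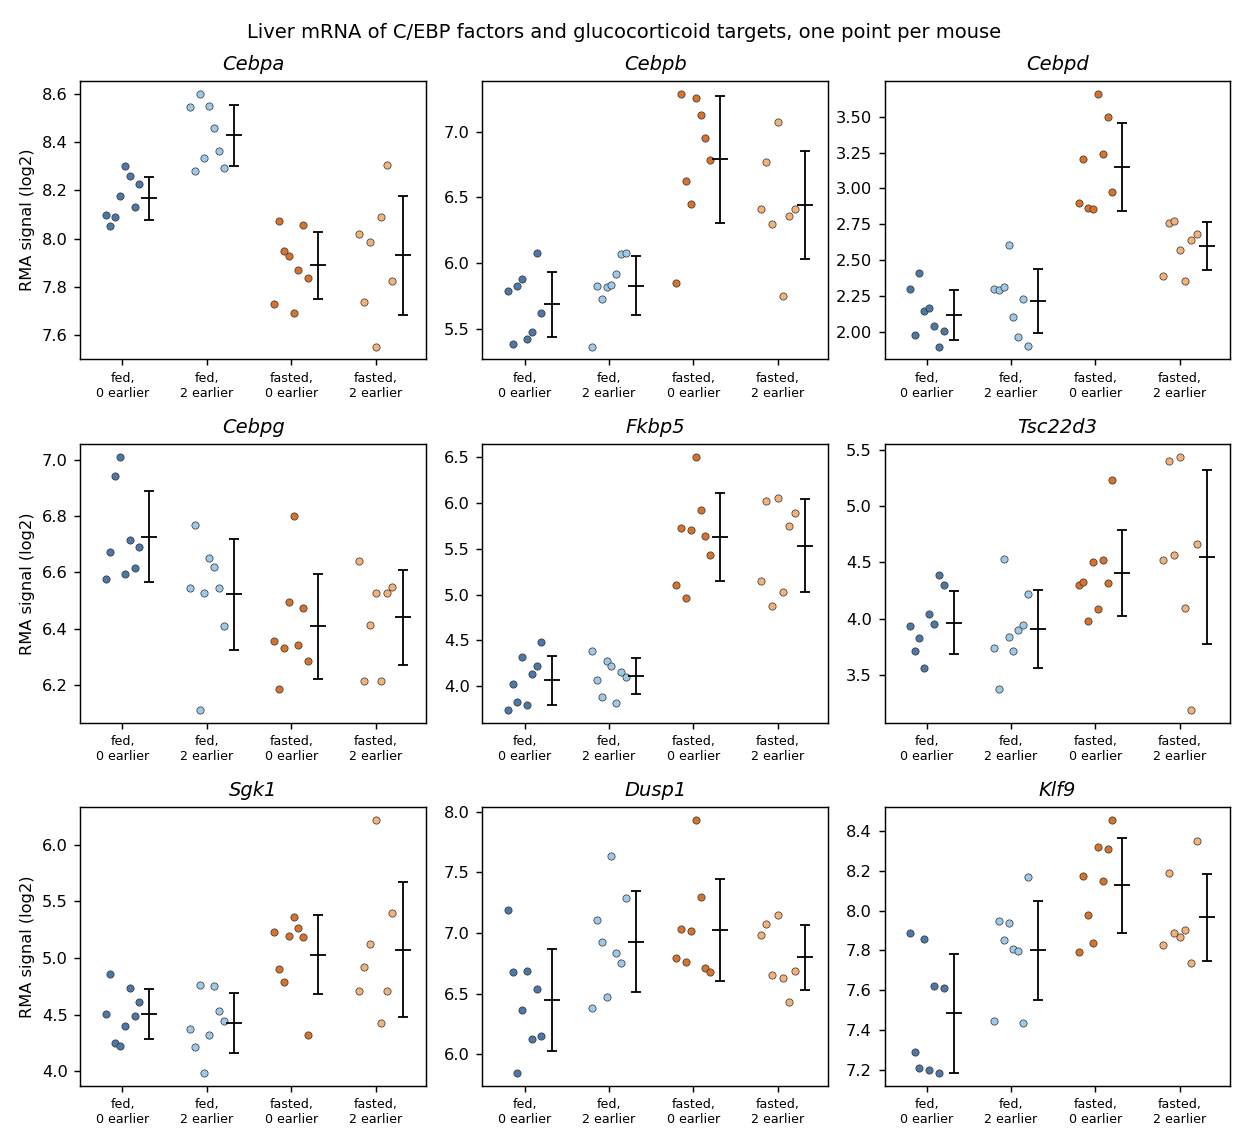
Log2 RMA signal of the 9 genes in every mouse (points), with group mean and SD (bars), by final state and number of earlier fasts. In both histories the fasted points of Fkbp5 lie above all fed points, and those of Cebpd do so in mice with 0 earlier fasts alone, while the scales differ between panels.

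A first fast raised 6 of the 9 genes and lowered 2. Cebpb, Cebpd, Fkbp5, Sgk1, Dusp1 and Klf9 rose, Cebpa and Cebpg fell, and Tsc22d3 did not pass. Calls rest on limma with p adjusted by Benjamini-Hochberg over all genes, at a threshold of 0.05. In this comparison 12.5% of all genes were called, 6.25% as higher and 6.23% as lower. The median change of the 9 was 0.58, against -0.0036 over all genes. In mice with 2 earlier fasts the final fast raised 4 of the 9 (Cebpb, Cebpd, Fkbp5 and Sgk1) and lowered Cebpa, where 11.6% of all genes were called, 6.06% higher and 5.52% lower. The median change of the 9 was 0.38 there, against -0.0004 over all genes. With both histories averaged, 6 rose and 2 fell, against 19.1% of all genes called, 9.79% higher and 9.36% lower. With 1 array left out, 5 to 8 of the 9 were called in mice with 0 earlier fasts. It was 5 without Fed_Fed_Fast replicate 5, 6 without Fed_Fed_Fast replicate 6 or Fed_Fed_Fed replicate 3 or 8, and 7 without any 1 of 9 other arrays. With 2 earlier fasts it was 4 to 6, and in the average 7 to 8.

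**Figure D2:**
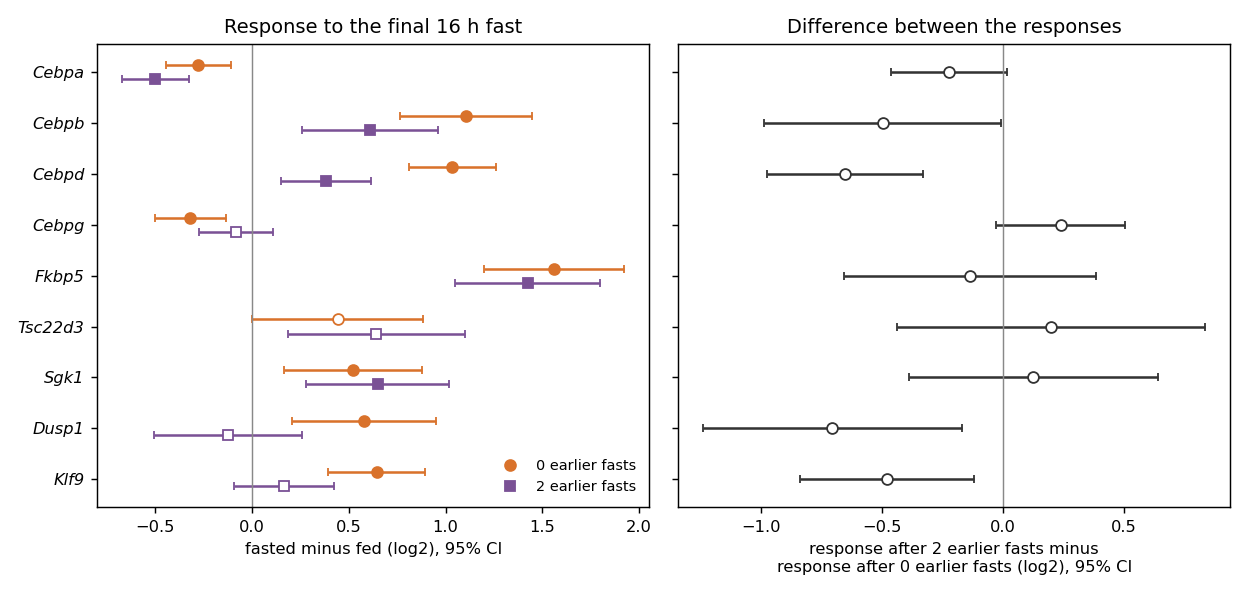
Left, change of each gene in the final fast (log2, fasted minus fed) with 95% confidence intervals, in mice with 0 (circles) and 2 (squares) earlier fasts, filled where the limma adjusted p was under 0.05. Right, the difference between these responses, of which none of the 9 was called; the intervals of Cebpb, Cebpd, Dusp1 and Klf9 lie below 0.

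Cebpa codes for the C/EBP protein that is typical of resting, differentiated hepatocytes. Its lowest, median and highest signals were 8.05, 8.15 and 8.30 in Fed_Fed_Fed and 7.69, 7.90 and 8.07 in Fed_Fed_Fast. They were 8.28, 8.41 and 8.60 in Fast_Fast_Fed and 7.55, 7.98 and 8.31 in Fast_Fast_Fast. Fasted mice were the lower ones in both histories, and the groups overlapped at the edge, with 6 of 8 and 6 of 7 fasted mice below the lowest fed mouse. Cebpa fell by 0.28 with 0 earlier fasts (SE 0.08, limma adjusted p = 0.0189), which is 1.21-fold. It fell by 0.50 with 2 earlier fasts (SE 0.08, limma adjusted p = 5.01e-05), which is 1.41-fold. The smaller fall was no longer called without Fed_Fed_Fast replicate 5 (limma adjusted p = 0.0505).

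Cebpb codes for the family member that hormones and cytokines induce in liver. It ran from 5.38 through a median of 5.71 to 6.08 in Fed_Fed_Fed and from 5.85 through 6.87 to 7.29 in Fed_Fed_Fast. In mice with 2 earlier fasts it ran from 5.36 through 5.83 to 6.08 when fed and from 5.75 through 6.41 to 7.07 when fasted. Fasted mice were higher, with 7 of 8 and 6 of 7 above the highest fed mouse, and 1 low fasted mouse in each history made the groups overlap. Cebpb rose by 1.11 (2.15-fold, SE 0.17, limma adjusted p = 6.61e-06) with 0 earlier fasts. With 2 it rose by 0.61 (1.53-fold, SE 0.17, limma adjusted p = 0.0149), a call that was lost without Fast_Fast_Fast replicate 4 (limma adjusted p = 0.053). The 2 TGACG sites printed above lie in the 83 bases before the start of this gene. Such a site was in 17.8% of mouse windows, and whether it bears on these rises was not tested.

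Cebpd, a family member known to rise early in stress and inflammation, was dim on these arrays, with a mean of 2.52 that is above that of 52.8% of genes. Its lowest, median and highest signals were 1.89, 2.09 and 2.41 in Fed_Fed_Fed and 2.86, 3.09 and 3.66 in Fed_Fed_Fast. In Fast_Fast_Fed they were 1.90, 2.26 and 2.60, and in Fast_Fast_Fast 2.36, 2.64 and 2.77. Without earlier fasts every fasted mouse lay above every fed mouse. With 2 earlier fasts the groups overlapped, and 4 of 7 fasted mice lay above the highest fed one. Cebpd rose by 1.03 (2.05-fold, SE 0.11, limma adjusted p = 8.5e-09) in the first case and by 0.38 (1.30-fold, SE 0.11, limma adjusted p = 0.0223) in the second. The second call was lost when 1 of 4 single arrays was left out, with limma adjusted p up to 0.055. In this low range RMA signals tend to understate folds.

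Cebpg codes for a family member that lacks a classical activation domain and pairs with other leucine zipper proteins. It ran from 6.58 through 6.68 to 7.01 in Fed_Fed_Fed and from 6.19 through 6.35 to 6.80 in Fed_Fed_Fast, and 7 of 8 fasted mice lay below the lowest fed mouse. It fell by 0.32 (1.25-fold, SE 0.09, limma adjusted p = 0.0138). In Fast_Fast_Fed it ran from 6.11 through 6.54 to 6.77 and in Fast_Fast_Fast from 6.21 through 6.53 to 6.64. These last groups lay on top of each other. Their difference was -0.081, with a 95% confidence interval from -0.27 to 0.11 (limma adjusted p = 0.709). Averaged over histories, Cebpg fell by 0.20 (limma adjusted p = 0.025), a call lost without Fast_Fast_Fast replicate 5 (limma adjusted p = 0.051).

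The receptor and the enzyme that supplies its ligand moved opposite to most of the targets. Nr3c1, the glucocorticoid receptor gene, had lowest, median and highest signals of 6.66, 6.90 and 7.17 in Fed_Fed_Fed and 6.42, 6.56 and 6.82 in Fed_Fed_Fast. They were 6.80, 6.97 and 7.23 in Fast_Fast_Fed and 6.37, 6.60 and 6.78 in Fast_Fast_Fast. Fasted mice were lower, and with 2 earlier fasts the groups did not overlap. Nr3c1 fell by 0.34 (limma adjusted p = 0.0033) and by 0.42 (limma adjusted p = 0.000443) with 0 and 2 earlier fasts. Hsd11b1, which codes for the enzyme that regenerates active glucocorticoid in liver, fell by 0.22 (limma adjusted p = 0.0404) and by 0.25 (limma adjusted p = 0.018). Its fall in mice with 0 earlier fasts rested on a margin that 4 alternative settings and 9 single left-out arrays removed, and the fall with 2 earlier fasts was lost without Fast_Fast_Fast replicate 4 (limma adjusted p = 0.0637).

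Of 14 measured genes of receptor function and hormone handling, which include Nr3c1 and Hsd11b1, 5 fell and 0 rose with 0 earlier fasts. With 2 earlier fasts 6 fell and 1 rose. With histories averaged, 6 fell and 1 rose, with a median of -0.13 against -0.0017 over all genes. Of all genes, 6.23% were called lower and 6.25% higher with 0 earlier fasts. These shares were 5.52% and 6.06% with 2, and 9.36% and 9.79% in the average. Serpina6, the plasma carrier of corticosteroids, fell by 1.51, and Akr1d1, a reductase that inactivates steroid hormones, fell by 0.79. Fkbp4, a cochaperone of the receptor, fell by 0.46. Hsp90aa1, a chaperone of the unliganded receptor, was the 1 that rose with 2 earlier fasts (0.41) and in the average (0.31).

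Fkbp5 codes for a cochaperone that lowers the hormone affinity of the glucocorticoid receptor and is widely used as a readout of glucocorticoid action. Its lowest, median and highest signals were 3.74, 4.08 and 4.48 in Fed_Fed_Fed and 4.96, 5.68 and 6.51 in Fed_Fed_Fast. They were 3.81, 4.12 and 4.39 in Fast_Fast_Fed and 4.87, 5.75 and 6.05 in Fast_Fast_Fast. In both histories every fasted mouse lay above every fed mouse. Fkbp5 rose by 1.56 (2.95-fold, SE 0.18, limma adjusted p = 3.29e-08) with 0 earlier fasts. It rose by 1.42 (2.68-fold, SE 0.18, limma adjusted p = 4.88e-07) with 2 earlier fasts. Of the 9 genes it had the largest change in both histories, and the difference between the responses was -0.14, with a 95% confidence interval from -0.66 to 0.38.

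Tsc22d3 codes for GILZ, a leucine zipper protein that mediates anti-inflammatory effects of glucocorticoids. It ran from 3.56 through 3.95 to 4.39 in Fed_Fed_Fed and from 3.98 through 4.32 to 5.23 in Fed_Fed_Fast. It ran from 3.38 through 3.87 to 4.53 in Fast_Fast_Fed and from 3.19 through 4.56 to 5.44 in Fast_Fast_Fast, the widest spread of the 9 genes in any group (SD 0.77). The groups overlapped widely, and Fast_Fast_Fast held both the lowest and the highest signal of all 31 arrays. The changes were 0.44 (limma adjusted p = 0.229) and 0.64 (limma adjusted p = 0.06), and neither passed. Without Fast_Fast_Fast replicate 6, the lowest mouse, the second was 0.87 and was called (limma adjusted p = 0.00174). Averaged over histories, Tsc22d3 rose by 0.54 (1.46-fold, SE 0.16, limma adjusted p = 0.0107).

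Sgk1, a serine and threonine kinase of ion transport and cell survival, is the gene whose palindromic element is printed above. It ran from 4.22 through 4.50 to 4.86 in Fed_Fed_Fed and from 4.32 through 5.19 to 5.36 in Fed_Fed_Fast. In mice with 2 earlier fasts it ran from 3.98 through 4.41 to 4.76 when fed and from 4.43 through 4.92 to 6.22 when fasted. Most fasted mice were high, 6 of 8 and 4 of 7 above the highest fed one, and the groups overlapped. Sgk1 rose by 0.52 (1.44-fold, SE 0.18, limma adjusted p = 0.044) and by 0.65 (1.57-fold, SE 0.18, limma adjusted p = 0.0134). The first call stood near the threshold and was lost in 12 of 31 fits that left out 1 array (limma adjusted p up to 0.0971). Averaged over histories, the rise was 0.59 (limma adjusted p = 0.000591). Acnat2, the other measured gene with that palindrome in its window, rose by 2.02 in the average (limma adjusted p = 1.09e-12). In that comparison 19.1% of all genes were called, and whether the palindrome bears on either rise was not tested.

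Dusp1 codes for a phosphatase that switches off MAP kinases. It ran from 5.84 through 6.45 to 7.19 in Fed_Fed_Fed and from 6.67 through 6.91 to 7.93 in Fed_Fed_Fast, with 2 of 8 fasted mice above the highest fed one. It rose by 0.58 (1.49-fold, SE 0.18, limma adjusted p = 0.0298), and the call was lost in 5 of 31 fits without 1 array (limma adjusted p up to 0.0919, without Fed_Fed_Fast replicate 5). In Fast_Fast_Fed it ran from 6.38 through 6.88 to 7.64 and in Fast_Fast_Fast from 6.43 through 6.69 to 7.15. No fasted mouse lay above the highest fed mouse there. The change was -0.12, with a 95% confidence interval from -0.51 to 0.26 (limma adjusted p = 0.795).

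Klf9 codes for a zinc finger repressor that thyroid hormone and glucocorticoids induce. It ran from 7.18 through 7.45 to 7.89 in Fed_Fed_Fed and from 7.79 through 8.16 to 8.46 in Fed_Fed_Fast. It rose by 0.64 (1.56-fold, SE 0.12, limma adjusted p = 0.000207), with 6 of 8 fasted mice above all fed mice. In Fast_Fast_Fed it ran from 7.43 through 7.83 to 8.17 and in Fast_Fast_Fast from 7.74 through 7.89 to 8.35. The groups overlapped over most of their range. The change was 0.17, with a 95% confidence interval from -0.091 to 0.42 (limma adjusted p = 0.516).

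The question of a trace of earlier fasts was addressed by comparing mice of the same final state. In fed mice limma called 0 of the 9 genes and 0% of all genes, while 4 of the 9 and 5.61% of all genes had an unadjusted p under 0.05. Cebpa was 0.26 higher in Fast_Fast_Fed than in Fed_Fed_Fed (SE 0.08, unadjusted p = 0.00306, limma adjusted p = 0.755), and 6 of 8 mice lay above the other group. Dusp1 was 0.48 higher (unadjusted p = 0.0131), Klf9 0.32 higher (unadjusted p = 0.0143) and Cebpg 0.21 lower (limma difference -0.21, unadjusted p = 0.0291), with adjusted p = 0.856 for each. The groups overlapped in all 4 genes. The other differences in fed mice lay between -0.085 for Sgk1 and 0.14 for Cebpb.

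In fasted mice limma again called 0 of the 9 and 0% of all genes, with 2 of the 9 and 4.49% of all genes at an unadjusted p under 0.05. Cebpd was lower by 0.55 in Fast_Fast_Fast than in Fed_Fed_Fast (limma difference -0.55, SE 0.11, unadjusted p = 2.93e-05, adjusted p = 0.473). All 7 mice with 2 earlier fasts lay below the lowest of the 8 with none, at the dim signals given above for this gene. The share of all genes whose groups separate fully was not counted, here or in the comparisons above. The unadjusted p of Cebpd ranked 1 among the 22180 genes and still missed the threshold after adjustment. Over 7 alternative settings its limma adjusted p ran from 0.268 to 0.723, and over the fits without 1 array from 0.26 to 1.00, with the difference between -0.60 and -0.48. Cebpb differed by -0.35 (unadjusted p = 0.0495, limma adjusted p = 1.00), with overlapping groups.

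The interaction tests whether the response itself differed between histories. Limma called 0 of the 9 genes and 0% of all genes, with 4 of the 9 and 4.61% of all genes at an unadjusted p under 0.05. The response with 2 earlier fasts minus that with 0 was -0.65 for Cebpd (SE 0.16, unadjusted p = 0.000257, limma adjusted p = 0.63). It was -0.70 for Dusp1 (unadjusted p = 0.0113), -0.50 for Cebpb (unadjusted p = 0.0468) and -0.48 for Klf9 (unadjusted p = 0.0106), each with limma adjusted p = 0.999. For Dusp1 and Klf9 both terms moved: the fed level was higher and the fasted level lower in mice with 2 earlier fasts, by amounts that did not pass. So the calls of Cebpg, Dusp1 and Klf9 in mice with 0 earlier fasts alone are not shown to differ between histories. The median interaction of the 9 was -0.22, against 0.0047 over all genes, and 3 of the 9 were positive. These comparisons share groups with both responses and with each other.

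Other known targets of glucocorticoids were described with a list of 31 measured genes that leaves out the 9. With 0 earlier fasts 21 rose and 1 fell, with a median of 0.54, and 18 rose without Fed_Fed_Fast replicate 5. With 2 earlier fasts 15 rose and 1 fell, with a median of 0.44. Averaged over histories, 22 rose and 2 fell. Of all genes, 6.25% were called higher and 6.23% lower with 0 earlier fasts, with a median of -0.0036. With 2 these shares were 6.06% and 5.52%, with a median of -0.0004, and in the average 9.79% and 9.36%. Among the 31 genes of the list, the averaged changes are given next. The largest changes were those of Mt2 (4.49) and Mt1 (3.65), which code for metal-binding metallothioneins, Cdkn1a (3.07), a cell cycle inhibitor, and Igfbp1 (2.95), a fasting-induced binding protein for insulin-like growth factors. Pik3r1, a regulatory subunit of phosphoinositide 3-kinase, was the 1 that fell in each history (limma change -0.60 and -0.36). In the interaction, 0 of the 31 were called and the median was -0.11. Many of these genes are also controlled by cAMP, PPAR-alpha or FoxO factors.

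**Figure D3:**
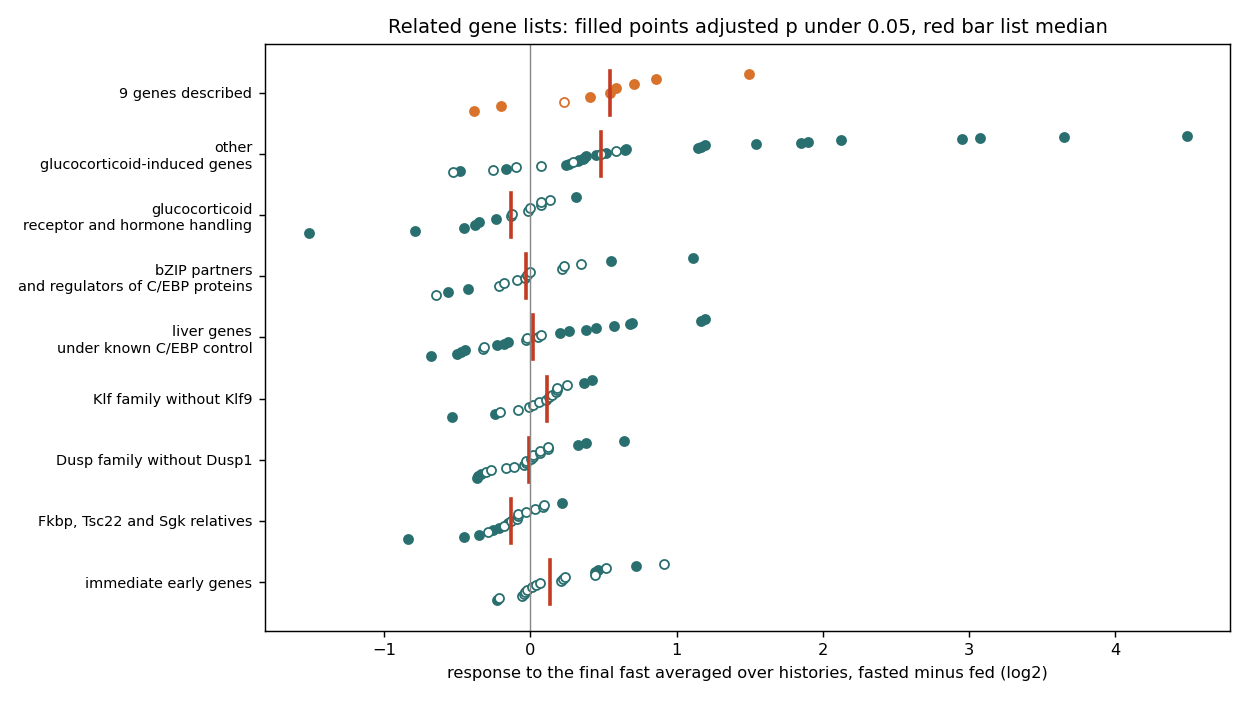
Change in the final fast averaged over both histories (log2, fasted minus fed), 1 point per gene, for the 9 genes and 8 lists; filled points have a limma adjusted p under 0.05 and bars are medians. The list of other glucocorticoid-induced genes has a median of 0.49, and the lists of family relatives have medians between -0.14 and 0.11.

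Genes under known C/EBP control were split. Over all genes, 6.25% were called higher and 6.23% lower with 0 earlier fasts, 6.06% and 5.52% with 2, and 9.79% and 9.36% in the average. Of the 22 listed genes measured, 7 rose and 7 fell with 0 earlier fasts, and 6 rose and 6 fell with 2. In the average 9 of them rose and 7 fell, with a median of 0.016. The rises included Lcn2 (1.19), an acute phase lipocalin, Pck1 (1.16), the rate-limiting enzyme of gluconeogenesis, Pcx (0.69), pyruvate carboxylase, and Ass1 (0.68) of the urea cycle. Lcn2 and Pck1 also stand in the list of glucocorticoid targets. Among the falls, Otc, another urea cycle gene, changed by -0.50 and Orm1, an acute phase gene, by -0.45 (limma adjusted p = 6.38e-09 and 1.48e-07).

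Of 14 measured partners and regulators of C/EBP proteins, 2 rose and 2 fell in mice with 0 earlier fasts, and in the average. The shares of all genes in the average were 9.79% higher and 9.36% lower. Atf5, a leucine zipper factor of the stress response, rose by 1.11. Trib3, a pseudokinase, rose by 0.55. Cebpe, a family member best known in granulocytes, fell by 0.56, and Atf4, the central factor of the integrated stress response and a partner of C/EBP proteins, fell by 0.43. The median of the 14 was -0.031, and 4 rose in the average without Fast_Fast_Fast replicate 4. With 2 earlier fasts Atf5 rose and Cebpe and Atf4 fell.

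Close relatives of the targets did not share their rises as families. Among 16 other Klf genes 2 rose and 2 fell in the average: Klf3 (0.42) and Klf15 (0.37) rose, and Klf12 (limma change -0.54) and Klf7 (-0.24) fell. Klf11 rose by 0.54 with 0 earlier fasts and was at -0.03 with 2, and its interaction of -0.57 was not called (limma adjusted p = 0.999). Among 20 other Dusp genes 3 rose and 3 fell, led by Dusp3 (0.64). Over all genes, 9.79% were called higher and 9.36% lower in the average, and the list counts were not tested against these shares. Among 17 measured relatives of Fkbp5, Tsc22d3 and Sgk1, 6 fell, among them Fkbp4 described above, and 1 rose. Fkbp11, a peptidyl-prolyl isomerase of the secretory pathway, had the largest fall (limma change -0.83), and Fkbp15 was the 1 that rose (0.22).

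Immediate early genes, which like Dusp1 answer to signalling within minutes, were described beside it. Of 18, 4 rose with 0 earlier fasts, namely Btg2 (1.07), Zfp36 (0.77), Junb (0.58) and Fosl2 (0.53). The count of 4 ran from 3 to 5 without 1 array, and 6.25% of all genes were called higher and 6.23% lower. With 2 earlier fasts 0 of the 18 were called, where 6.06% of all genes were called higher and 5.52% lower. The interaction called 0, with values of -0.69 for Btg2, -0.61 for Zfp36, -0.71 for Junb and -0.17 for Fosl2, whose response with 2 earlier fasts was 0.35 and not called. That count of 0 with 2 earlier fasts became 1 lower in 7 of 31 fits without 1 array and 1 higher without Fast_Fast_Fed replicate 8. Their mean in single mice ran from 3.51 through 3.78 to 4.70 in Fed_Fed_Fast, and the top value was that of replicate 5, which also had the highest Dusp1. In Fast_Fast_Fast the mean ran from 3.54 through 3.66 to 3.91.

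Single mice stood out within the fasted groups. Fed_Fed_Fast replicate 5 had the highest signal of its group for Cebpd (3.66), Cebpg (6.80), Fkbp5 (6.51), Sgk1 (5.36) and Dusp1 (7.93), and the lowest for Cebpa (7.69). Fast_Fast_Fast replicate 4 was highest for Cebpb (7.07), Fkbp5 (6.05), Tsc22d3 (5.44), Sgk1 (6.22) and Dusp1 (7.15), and lowest for Cebpa (7.55). Fkbp5, Sgk1 and Dusp1 were thus highest, and Cebpa lowest, in the same mouse of each fasted group. No mouse of a fed group was highest for more than 3 of the 9 genes.

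**Figure D4:**
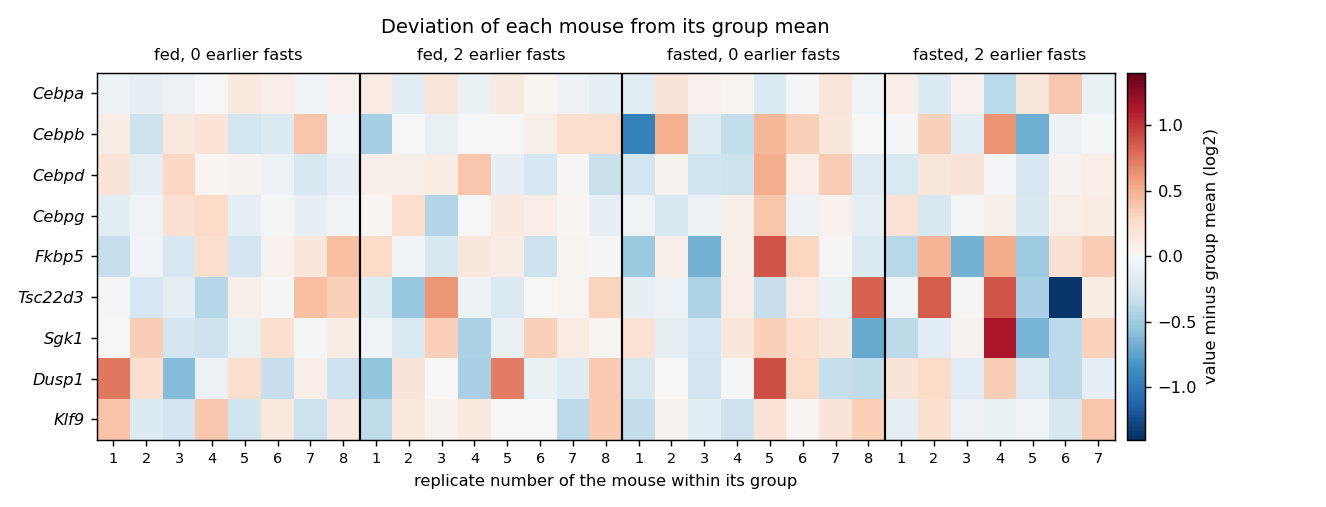
Deviation of each mouse from the mean of its group (log2) for the 9 genes, with red above and blue below; columns are mice by replicate number within a group, and equal numbers in different groups are different mice. Fasted replicate 5 with 0 earlier fasts and fasted replicate 4 with 2 show red in several rows, with Sgk1 of the latter at 6.22 against a group median of 4.92.

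To ask whether the genes varied together among mice treated alike, group means were subtracted and the 36 pairs were correlated over 31 arrays. With permutation within groups, 0 pairs passed after Benjamini-Hochberg adjustment over the 36, and the median Pearson's r was 0.17. The highest was that of Cebpb and Fkbp5 (r = 0.55, permutation p = 0.0098, adjusted p = 0.235; rho = 0.47, permutation p = 0.0156). Without the 2 arrays farthest from the median of Cebpb its r was 0.42. It was 0.71 in the 15 fasted arrays (permutation p = 0.0047, adjusted p = 0.0949) and -0.053 in the 16 fed arrays (permutation p = 0.851, adjusted p = 0.958). The lowest was that of Cebpa and Tsc22d3 (r = -0.48, permutation p = 0.0491, adjusted p = 0.235; rho = -0.20, permutation p = 0.316), which came to -0.099 without 2 arrays. It was -0.73 in the fasted arrays (permutation p = 0.0093, adjusted p = 0.0949) and 0.32 in the fed arrays (permutation p = 0.269, adjusted p = 0.87). In fed arrays alone 1 pair passed, Cebpg and Tsc22d3 (r = -0.82, permutation p = 0.00051, adjusted p = 0.0184). The median r of the 36 pairs was 0.35 in fasted and -0.064 in fed arrays, a difference that was not tested.

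For each of the 9, the genes whose deviations from group means were most alike over the 31 arrays are given as a description, with Pearson's r. For Cebpb they were Slc38a2 (0.79), a transporter of neutral amino acids, and Slc25a51 (0.78), the mitochondrial NAD carrier. Slc25a51 also came first for Fkbp5 (0.72), followed by Retreg1 (0.70), a receptor of endoplasmic reticulum autophagy. For Tsc22d3 they were Klf15 (0.72), another glucocorticoid-induced factor, and Sall1 (0.70), a zinc finger factor. For Cebpa they were Gba2 (0.71) and Rgl3 (0.71), for Cebpg Rai14 (0.67) and Ubr2 (0.67), and for Klf9 Man2a1 (0.70) and Pptc7 (0.70). For Cebpd they were Abracl (0.74) and Etfrf1 (0.66), and for Dusp1 Mrpl38 (0.73) and Msl3l2 (0.66). Those of Sgk1, Nrros (0.68) and Gpr160 (0.66), rested largely on Fast_Fast_Fast replicate 4, without which r was 0.50 for each. All of these values come from a search over all genes on the same arrays.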

How the data were processed

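Liver RNA of 31 mice (100 ng each) was labelled with biotin and hybridised to Affymetrix whole-transcript arrays, per the labels. The deposited values are log2 signals that the authors made with RMA, per the submitters' processing notes; no version of RMA is named in the sources used here; detection calls were not used. RMA fits the same signal distribution to all arrays, so changes are relative to the other genes. Of 41345 probe sets, 23521 had 1 gene symbol in the platform's annotation, 16010 had none and 1814 had several, and the last 2 kinds were left out. The probe set with the highest mean stood for a gene, which gave 22180 genes.

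Group means were fitted over all 4 groups with limma 3.58.1 (R 4.3.3, package data.table, version 1.17.8), with moderated variances and 2-sided contrasts, adjusted over all genes of a comparison. The scripts were tested on simulated data. Correlations used 100000 permutations within groups, 2-sided. Python 3.11.15 with matplotlib 3.10.9 drew the figures. Promoter windows and chromosomes are those of RefSeq on GRCm38.p6.

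The 9 genes and all lists were chosen with earlier results of these data known. Named genes are the 9, Nr3c1 and Hsd11b1 throughout, up to 4 called genes of each list with the largest averaged change, all called genes of a list where a comparison has at most 5, and the 2 genes most alike in deviation from group means. Outside this rule, and chosen after their values were seen, are Otc, Orm1, Pik3r1, Fkbp15, Hsp90aa1 and Acnat2, and the Kupffer markers named beside their list. Alternatives were a trended robust variance, the compared groups alone, cyclic loess, centred array medians, a filter on dim genes, mean probe sets, array weights, a replicate block and leaving out each array. Each array is a separate mouse; the labels give no batch.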

Additional observations from a re-analysis of the deposited data

Results flagged for a closer look

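Tsc22d3 in fasted mice with 0 earlier fasts had 1 array far from the others. Fed_Fed_Fast replicate 8 stood at 5.23, the next highest mouse at 4.52 and the lowest at 3.98. The same mouse had the highest Klf9 and the lowest Sgk1 and Dusp1 of its group. Without it the response of Tsc22d3 with 0 earlier fasts was 0.32 (limma adjusted p = 0.436). This was 1 flag in 44 group levels checked (11 genes in 4 groups), and chance flags about 1 in 20.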

How the results depend on the processing

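The 6 comparisons of these genes were repeated without each of the 31 arrays and under 8 alternative settings, or 7 for the interaction and the average, where the compared groups cannot be fitted alone; the filter on dim genes gave no value for Cebpd. Of the 9 genes, 5 to 8 were called in mice with 0 earlier fasts without 1 array (5 without Fed_Fed_Fast replicate 5) and 7 to 8 over the settings, 4 to 6 with 2 earlier fasts without 1 array and 5 over the settings, and 7 to 8 in the average. For history in fed or in fasted mice and for the interaction it was 0 throughout. Over all genes these last 3 gave 0 to 1 without 1 array: 1 for fed mice without Fast_Fast_Fed replicate 1 or Fed_Fed_Fed replicate 4, 1 for fasted mice without Fast_Fast_Fast replicate 6, and 1 for the interaction without Fed_Fed_Fast replicate 3 or Fast_Fast_Fast replicate 6. The cause was not tested. The fed arrays alone gave 1 correlated pair in place of 0.

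With the replicate number as a block, 7 of the 9 were called with 0 earlier fasts, 5 with 2 and 8 in the average. Sgk1 with 0 earlier fasts (limma adjusted p = 0.0698), Hsd11b1 with 0 (0.0597) and Cebpd with 2 (0.0597) were lost, and Tsc22d3 with 2 (0.0359) was gained; Sgk1 was also lost with cyclic loess, and Tsc22d3 was also gained with the filter on dim genes, which leaves out Cebpd. Over 45 pairs of equal number, deviations correlated between -0.0643 and 0.116, with a median of 0.0328 and 3 over 0.1. Over 315 pairs of unequal number they correlated between -0.194 and 0.179, with a median of -0.00302 and 6 over 0.1. Of 31 arrays, 7 correlated best with their own number. Whether equal numbers share more than a name was not tested.

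Small differences that no test called changed sign. Without 1 array, history in fed mice ran from -4.13e-05 to 0.11 for Fkbp5 and -0.14 to 0.019 for Tsc22d3. History in fasted mice ran from -0.023 to 0.10 for Cebpa, -0.0013 to 0.088 for Cebpg, -0.18 to 0.035 for Fkbp5, -0.0032 to 0.37 for Tsc22d3, -0.15 to 0.15 for Sgk1, -0.016 to 0.053 for Nr3c1 and -0.041 to 0.043 for Hsd11b1. The interaction ran from -0.064 to 0.23 for Sgk1 and -0.077 to 0.0065 for Hsd11b1. History in fasted mice was -0.0018 for Nr3c1 with cyclic loess and 0.015 for Hsd11b1 with array medians subtracted. With 1 array per mouse and no detection calls, changes of dim genes such as Cebpd have no stated limit of detection.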

Other observations

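Markers of other liver cell types were followed in the same fits. In the average over histories 9.79% of all genes were called higher and 9.36% lower. Averaged over histories, 11 of 12 Kupffer cell markers fell, led by Folr2 (limma change -1.36) and Adgre1 (-0.76), with Marco at 0.37 and not called. Of 12 markers of stellate cells and fibroblasts, 3 were lower (5 without Fast_Fast_Fast replicate 6) and 1 higher (0 to 2 without 1 array), among them Lrat (limma change -0.64) and Col3a1, at -0.92 and -1.09 with 0 and 2 earlier fasts. Of 12 sinusoidal endothelial markers 4 fell and 1 rose, and the 1 that rose was Lyve1, by 0.93 and 1.06 with 0 and 2 earlier fasts. Only 2 fell without Fast_Fast_Fast replicate 2 or 7 or Fed_Fed_Fed replicate 1, and 2 rose without Fast_Fast_Fast replicate 4, Fed_Fed_Fast replicate 1 or Fed_Fed_Fed replicate 1. Of 11 measured lymphocyte markers 2 fell, Ptprc (limma change -0.56) and Nkg7 (-0.29), and 4 did without Fast_Fast_Fed replicate 2 or Fed_Fed_Fed replicate 7. Of 9 measured hepatocyte markers 2 rose and 3 fell, led by Hnf4a (0.33). Of 6 measured adipocyte markers 1 fell, Car3 (limma change -2.42), which hepatocytes also express. The mean of the 6 ran from 3.21 through 3.64 to 5.05 in Fed_Fed_Fast, with the top value in replicate 4. In Fast_Fast_Fast it ran from 3.31 through 3.50 to 3.80, and the cause of the high value was not tested. None of 5 cholangiocyte, 10 neutrophil and monocyte, and 1 erythroid marker was called (0 in limma's test), but 1 of the neutrophil and monocyte markers was lower without Fast_Fast_Fast replicate 5 or Fed_Fed_Fast replicate 4.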
